A study of Mus musculus with 9 samples.

Results

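Ligands and receptors of the neuregulin, epidermal growth factor (EGF) and fibroblast growth factor (FGF) families were examined in mouse dorsal root ganglia (DRG) after injury of the sciatic nerve. The 10 genes were the ligands Nrg1, Hbegf, Btc, Fgf2 and Fgf7, the receptors Egfr, Erbb2, Erbb3 and Fgfr1, and the intracellular FGF homologous factor Fgf13. They were taken as every probe that carries one of these gene names, an older symbol or a matching transcript accession, which gave 31 of the 41174 probes on the array. The whole array held 20898 tested genes. The arrays compared L3/L4 DRG of adult mice 3 days after sciatic nerve transection (5 injured samples) with uninjured L3/L4 DRG (4 samples). All 9 samples carried the same genotype labels, cre.neg and jun.wt. The labels do not tie samples to animals, and p-values therefore measure only the spread between these samples, which may be technical. Whether the uninjured ganglia came from the injured mice is not given for the arrays. The time of 3 days is that of the labels and the methods, and the study's results text names 24 hr. For the ganglia, L3/L4 is the wording of the methods, and the results text names L4.

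Neuregulins and EGF-like ligands are made as membrane-anchored precursors, are released by proteases and bind receptor tyrosine kinases of the ErbB family. In peripheral nerve, neuregulin-1 on axons acts through ErbB2 and ErbB3 on Schwann cells to control their survival and the thickness of myelin. Most FGFs are secreted and signal through FGF receptors, whereas the FGF homologous factors, Fgf11 to Fgf14, stay inside the cell and bind voltage-gated sodium channels. Both receptor families act through adaptor proteins, Ras, ERK and Akt.

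Each array was hybridised with DRG RNA in Cy5 against a common mouse reference RNA in Cy3, and dyes were never swapped. A level below is the log2 ratio of DRG over reference for one probe, and a difference is the mean of the injured arrays minus the mean of the uninjured arrays on that log2 scale. Levels of different probes are not comparable, since each is relative to its own reference signal. Median Cy5 signal was 200 to 231 on uninjured and 156 to 238 on injured arrays, and 71.0% to 78.9% of spots were well above background in Cy5. All 10 sensory neuron markers were tested, with uninjured levels from 3.78 (Tubb3) to 10.02 (Nefl). The 9 arrays lay on 3 slides: uninjured 2, 3 and 4 on slide 1, uninjured 1 with injured 1, 2 and 5 on slide 2, and injured 3 and 4 on slide 3. Injury and slide therefore overlap in large part, and a fit that takes slide as a fixed block (the slide block) rests on uninjured 1 as its only control. On injured 2, 26 spots had a non-uniform feature or background and were left out before the background fit. Skeletal muscle markers (5 genes, none past the threshold) lay 1.81 above the uninjured mean on injured 2 and 3.31 above it on injured 4, against -0.11 to 0.31 on the other injured arrays. In whole ganglia, fewer cells of a type and less RNA per cell cannot be told apart.

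Of the 31 probes, 27 passed the filter on dim signal and were tested, covering 9 of the 10 genes. Each gene was represented by its brightest tested probe. At an adjusted p under 0.05 (limma, Benjamini-Hochberg over all 31186 tested probes), 4 of the 9 genes were called. Hbegf and Erbb2 were higher after injury, and Nrg1 and Fgf13 were lower. Over all 20898 genes, 24.9% were called, 11.2% higher and 13.6% lower. By probe, 11 of the 27 were called, 4 higher and 7 lower. Of all tested probes 23.5% were called, 10.5% higher and 13% lower. The injured and uninjured arrays did not overlap for the brightest probe of 3 genes (Nrg1, Erbb2 and Fgf13), against 23.9% of all genes, and for 9 of the 27 probes, against 22.6% of all probes. The median difference over the 9 genes was 0.08, against 0.00 over all genes. With the slide block, none of the 9 genes was called, against 5.34% of all genes.

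**Figure D1:**
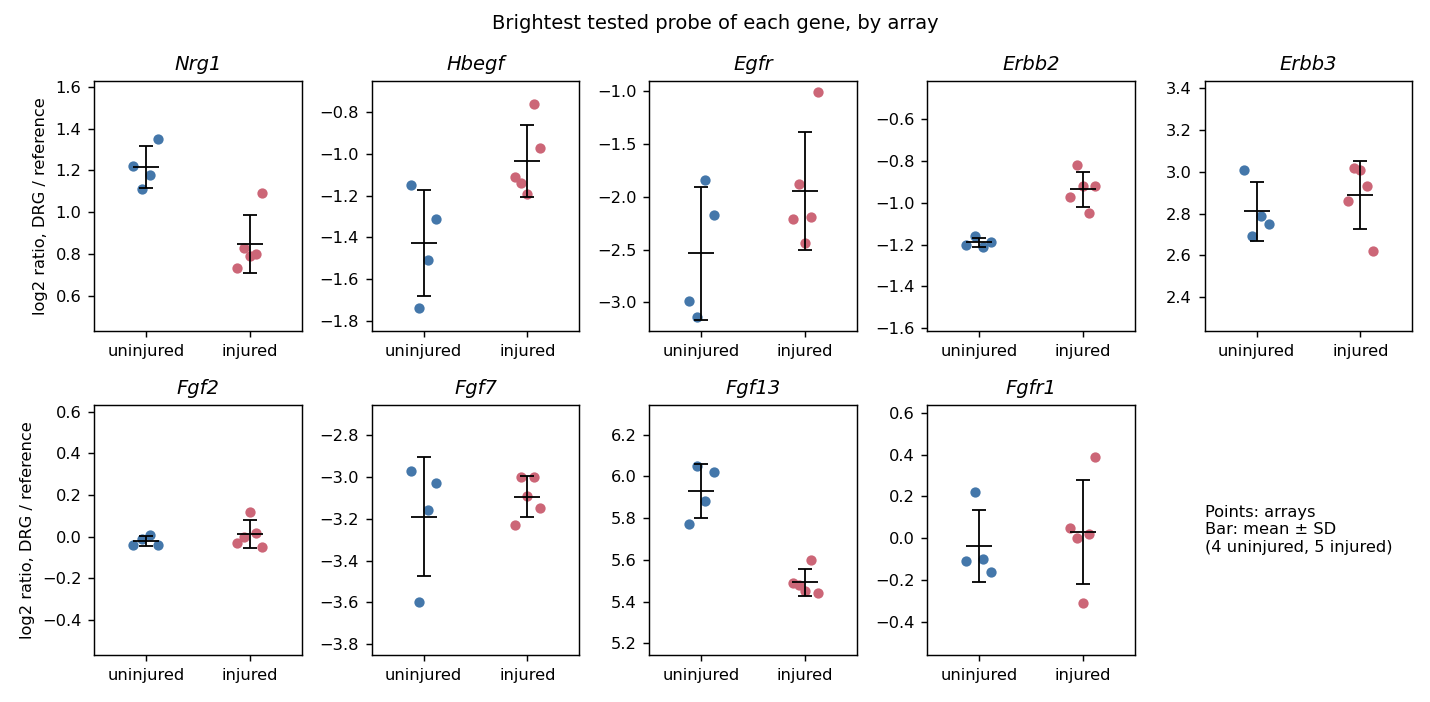
Log2 ratio of DRG over reference (y axis) for the brightest tested probe of 9 genes in 4 uninjured (blue) and 5 injured (red) arrays; each point is an array and bars give the mean ± SD. Each panel has its own y axis. The groups are apart for Nrg1, Erbb2 and Fgf13, and Hbegf overlaps through uninjured 1.

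Upstream sequence is shown for Fgf13 and Erbb2, called members with an entry among RefSeq's promoter windows (GRCm38.p6). It is also shown for Areg, the EGF-family ligand with the largest difference. Hbegf, another called member, was left out of the search. The motifs located were a relaxed form of the AP-1 motif, with any central base (TGANTCA), and the cyclic AMP response element (TGACGTCA). Each run is the 250 bases before an annotated start, 5′ to 3′ on the gene's strand, with motif matches in capitals. Both motifs were searched on both strands, and neither contains the other. Of 32851 windows of this length, 6.75% hold TGANTCA, counted with any central base, and 1.55% hold TGACGTCA. A match is a description of the letters and not a bound site. Probe positions given below are in an older build (mm7) and cannot be set against the positions of these windows. Entries were found for 6 of the 10 genes (Btc, Egfr, Erbb2, Fgf2, Fgf7 and Fgf13), in 9 windows, with Hbegf not searched. Fgf13 has 4 windows, whose GC content was 45.6%, 74.8%, 40.4% and 74.4%. The third of these (chrX:59166089-59166338, minus strand) holds TGAATCA, with a central A, from 156 to 150 bases before the start, and it is the only match among the 9 windows. The second (chrX:59567349-59567598, minus strand) is printed beside it as a GC-rich start of the same gene without a match.
Fgf13 window 3: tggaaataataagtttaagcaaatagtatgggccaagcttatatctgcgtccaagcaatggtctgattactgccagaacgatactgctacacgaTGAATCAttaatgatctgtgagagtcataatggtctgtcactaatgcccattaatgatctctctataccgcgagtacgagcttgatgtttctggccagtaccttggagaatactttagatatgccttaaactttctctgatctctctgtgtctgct
Fgf13 window 2: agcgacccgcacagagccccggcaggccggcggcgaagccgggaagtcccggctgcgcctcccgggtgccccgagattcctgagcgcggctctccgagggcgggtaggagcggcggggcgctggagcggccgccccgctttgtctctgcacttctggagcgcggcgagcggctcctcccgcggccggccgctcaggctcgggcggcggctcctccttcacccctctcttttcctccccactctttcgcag
The Erbb2 window (chr11:98412234-98412483, plus strand) has a GC content of 66.0% and no match, and the Areg window (chr5:91139349-91139598, plus strand) has TGACGTCA from 61 to 54 bases before the start.
Erbb2: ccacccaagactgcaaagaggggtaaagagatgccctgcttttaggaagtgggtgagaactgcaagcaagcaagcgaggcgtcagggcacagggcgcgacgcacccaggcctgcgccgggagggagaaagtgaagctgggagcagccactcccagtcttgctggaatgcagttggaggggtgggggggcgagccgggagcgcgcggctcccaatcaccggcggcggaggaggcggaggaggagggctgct
Areg: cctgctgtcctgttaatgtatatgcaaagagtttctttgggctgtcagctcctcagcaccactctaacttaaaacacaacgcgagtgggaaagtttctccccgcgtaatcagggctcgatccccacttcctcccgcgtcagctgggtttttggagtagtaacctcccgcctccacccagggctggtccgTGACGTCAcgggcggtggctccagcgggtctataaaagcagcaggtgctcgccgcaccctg

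Nrg1 encodes neuregulin-1, and 4 of its 5 probes fell after injury. The probes lie on the minus strand of chromosome 8 (build mm7), within 33.983 kb of each other. Exon or intron positions were not assigned, because an annotation of that build was not used here. The coordinates of A_52_P369761 span 6501 bases, against 60 for each other Nrg1 probe. The brightest probe (A_52_P369769, chr8:30617036-30617095) was at 1.22, 1.11, 1.18 and 1.35 in uninjured 1 to 4 and at 0.73, 0.83, 0.79, 0.80 and 1.09 in injured 1 to 5. All injured arrays lay below all uninjured arrays, injured 5 by the smallest margin. The difference was -0.37 (SE 0.0826), which is 22.5% lower, with an adjusted p of 0.00866 and an exact two-sided permutation p of 0.0159. On slide 2, uninjured 1 was at 1.22 and the 3 injured arrays were at 0.73 to 1.09. The slide block gave a difference of -0.34 and an adjusted p of 0.273. Among the alternatives run, the call was lost only there and under a threshold of 1.5-fold.

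The largest fall in Nrg1 was at the 3′-most probe (A_52_P158772, chr8:30583053-30583112). It was at 1.68, 1.61, 1.81 and 1.68 in uninjured 1 to 4 and at 1.19, 1.01, 0.96, 0.77 and 0.82 in injured 1 to 5. The groups lay far apart, with a difference of -0.74 (SE 0.0882), or 40.3% lower (adjusted p 0.000189, limma; 0.0506 with the slide block). The next probe upstream (A_52_P52635, chr8:30590010-30590069) was at 0.81 to 0.94 in uninjured and 0.21 to 0.60 in injured arrays, a difference of -0.41 (SE 0.0878, adjusted p 0.00672; 0.362 with the slide block). A further probe (A_52_P369761, chr8:30598926-30605426) had a difference of -0.26 (SE 0.0820, adjusted p 0.0411), and its groups overlapped through injured 5 at 1.54. That call was kept without uninjured 2 and without injured 5 but was lost when any other single array was left out (differences of -0.27 to -0.22). The remaining probe (A_52_P328064, chr8:30612827-30612886) varied widely within groups, from 0.19 to 0.99 in uninjured and from -0.04 to 0.87 in injured arrays. Its difference was -0.19 (SE 0.222, adjusted p 0.598). The 3′-most probe fell by 0.38 more than the brightest one within arrays, but this difference between probes did not pass after adjustment over 18 such pairs (exact permutation p 0.0476, adjusted p 0.333). None of the 18 pairs passed.

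Hbegf, heparin-binding EGF-like growth factor, binds EGFR and ErbB4. Its 1 probe (A_51_P181565) was at -1.15, -1.74, -1.51 and -1.31 in uninjured 1 to 4 and at -1.11, -1.14, -1.19, -0.76 and -0.97 in injured 1 to 5. Injured 3 lay below uninjured 1, and the other 4 injured arrays were above every uninjured array. The difference was 0.39 (SE 0.124), or 31.4% higher, with an adjusted p of 0.0419 (limma) and an exact two-sided permutation p of 0.0159. The call was close to the threshold: it was kept without uninjured 1 and without injured 3, and lost when any of the other 7 arrays was left out (differences of 0.29 to 0.49 over all 9). Most other normalizations lost it too, among them median centring (0.32, adjusted p 0.159, limma) and Agilent's ratio (0.42, adjusted p 0.0682). On slide 2 the difference shrank, with uninjured 1 at -1.15 and the injured arrays at -1.14 to -0.97, and with the slide block it was 0.08 (adjusted p 0.871).

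Btc, betacellulin, another EGFR and ErbB4 ligand, was not well above background in Cy5 on any of the 9 arrays at either of its probes (A_51_P138429, chr5:91347272-91347331, and A_52_P672689, chr5:91346189-91346248). At the second probe the reference channel was above background on all 9 arrays, so the DRG signal there has only an upper bound. Neither was tested, and no fold is given.

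Egfr, the EGF receptor, was measured by 6 probes, and 2 of the 5 tested rose. The probe A_51_P392242 (chr11:16839391-16839450) was at -1.78, -1.79, -1.23 and -1.31 in uninjured 1 to 4 and at -0.97, -0.88, -1.08, -1.00 and -0.36 in injured 1 to 5. No injured array fell within the uninjured range, although injured 3 at -1.08 and uninjured 3 at -1.23 were close. The difference was 0.67 (SE 0.164), or 58.9% higher (adjusted p 0.0137, limma). A neighbouring probe, A_52_P56471 (chr11:16835551-16835610), was at -1.98 to -1.21 in uninjured and -1.02 to -0.34 in injured arrays, also without overlap. It differed by 0.67 (SE 0.181, adjusted p 0.0215), a call lost without uninjured 1 (0.63, adjusted p 0.0636) or without uninjured 2 (0.51, adjusted p 0.0535). With the slide block the differences were 1.04 (adjusted p 0.0641) and 0.89 (adjusted p 0.170).

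The brightest Egfr probe (A_52_P106259, chr11:16865821-16865880) was at -2.99, -3.14, -1.84 and -2.17 in uninjured 1 to 4 and at -2.21, -1.88, -2.44, -2.19 and -1.01 in injured 1 to 5. These groups overlapped, and the difference of 0.59 (SE 0.324) did not pass (adjusted p 0.227). It was 1.29 with the slide block, 0.34 with array weights, and 0.36 (without injured 5) to 0.82 (without uninjured 3) when single arrays were left out, with 0.39 without uninjured 2. Egfr is therefore not among the 4 called genes, although 2 of its other probes were called. Nearby, A_52_P175190 (chr11:16869636-16869695) differed by 0.08 (SE 0.225, adjusted p 0.845) and A_52_P674338 (chr11:16864187-16864246) by 0.07 (SE 0.129, adjusted p 0.751). The last of these was well above background on 2 of 4 uninjured and 5 of 5 injured arrays. The sixth probe (A_52_P5855, chr11:16707644-16707703) was not above background in Cy5 on any array. Both called probes lie 24.796 kb or more before the 3 others that were tested.

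The levels of Egfr were not even within groups, and the mean of 5 fibroblast markers (Col1a1, Col3a1, Dcn, Lum and Pdgfra) varied alongside them. Relative to the uninjured mean, these markers were at -0.24, -0.59, 0.53 and 0.31 in uninjured 1 to 4 and at -0.06, 0.44, 0.11, 0.17 and 0.76 in injured 1 to 5. Uninjured 1 and 2 were the lowest and injured 5 the highest in both measures. Each of these traits also occurred in other marker lists. Injured 5 was the highest array for satellite glia (0.46), endothelial (0.45), red blood cell (1.12) and sensory neuron (0.21) markers. It was not the highest for the Schwann cell, macrophage, skeletal muscle and dividing cell lists. Uninjured 1 and 2 were also the lowest for macrophage markers (-0.13 and -0.34). None of the 5 fibroblast markers passed the test, and their median difference was 0.25. Their part in the Egfr result was not tested.

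**Figure D2:**
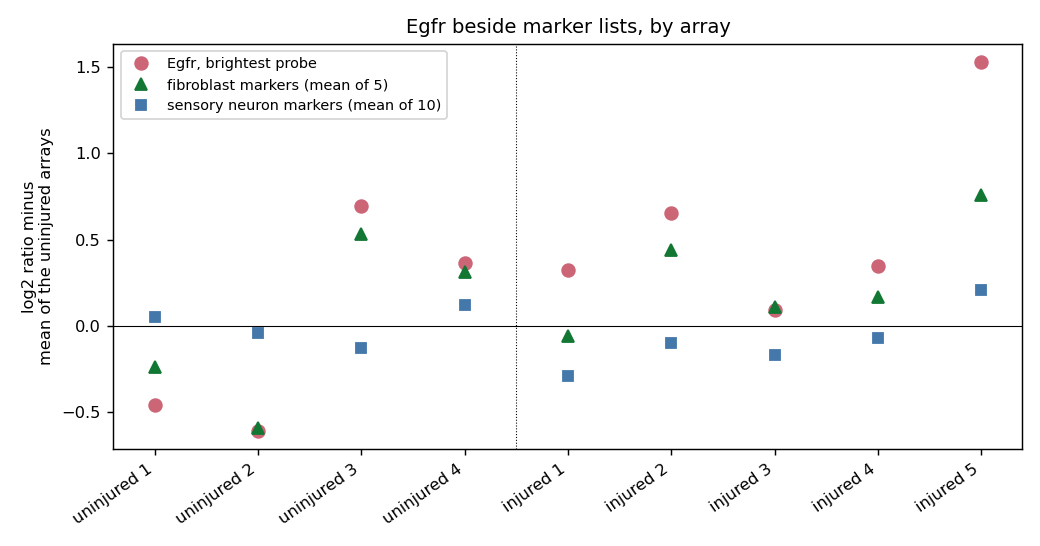
Log2 ratio relative to the mean of the uninjured arrays (y axis) for the brightest Egfr probe (circles), the mean of 5 fibroblast markers (triangles) and the mean of 10 sensory neuron markers (squares) on each of the 9 arrays. Egfr and the fibroblast markers are lowest on uninjured 1 and 2 and highest on injured 5. The neuron markers stay between -0.29 and 0.21 and are also highest on injured 5.

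Erbb2 encodes the receptor subunit that binds no ligand itself and pairs with the other ErbB receptors. Its brightest probe (A_52_P49250, chr11:98545828-98545887) was at -1.20, -1.16, -1.21 and -1.19 in uninjured 1 to 4 and at -0.97, -0.82, -0.92, -1.05 and -0.92 in injured 1 to 5. The uninjured arrays were tightly grouped (SD 0.0223) and all injured arrays lay above them. The rise was small, 0.25 (SE 0.0600) or 19.2% (adjusted p 0.0115, limma; exact two-sided permutation p 0.0159), and was not called with median centring (0.17, adjusted p 0.435) or Cy5 alone (0.20, adjusted p 0.0591). On slide 2, uninjured 1 was at -1.20 and the injured arrays were at -0.97 to -0.82. The slide block gave a difference of 0.30 (adjusted p 0.178). The second Erbb2 probe (A_51_P216179, chr11:98543549-98543608) overlapped between groups, with a difference of 0.10 (SE 0.0935, adjusted p 0.495). This probe was dim, with Cy5 signals of 81.5 to 95.7, against 561 to 1028 for the brightest. Its difference was 0.25 with Agilent's ratio, so it says little about the rise.

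Erbb3, the neuregulin receptor that signals together with ErbB2, had no called probe among 5. The brightest (A_52_P432949, chr10:128069461-128069520) was at 3.01, 2.69, 2.79 and 2.75 in uninjured 1 to 4 and at 2.86, 3.02, 3.01, 2.93 and 2.62 in injured 1 to 5. Injured 5 was the lowest of all arrays and uninjured 1 lay among the highest, so the groups overlapped fully (difference 0.08, SE 0.0960, adjusted p 0.616). The other probes differed by 0.05 (A_51_P342050), 0.05 (A_51_P488243), 0.10 (A_52_P133607) and 0.13 (A_51_P414813), of which the first 2 share 40 bases. All of these were dim, with Cy5 signals between 61 and 192, against 3367 to 8097 for the brightest. A_52_P133607 was well above background in Cy5 on 4 of the 5 injured arrays, and in the reference channel on no array. Markers of myelinating Schwann cells (8 genes, none past the threshold) were at -0.49 to 0.38 in uninjured and -0.20 to 0.60 in injured arrays relative to the uninjured mean. The single probe of Erbb4, the remaining receptor of the family, differed by 0.09 (SE 0.0540, adjusted p 0.294).

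**Figure D3:**
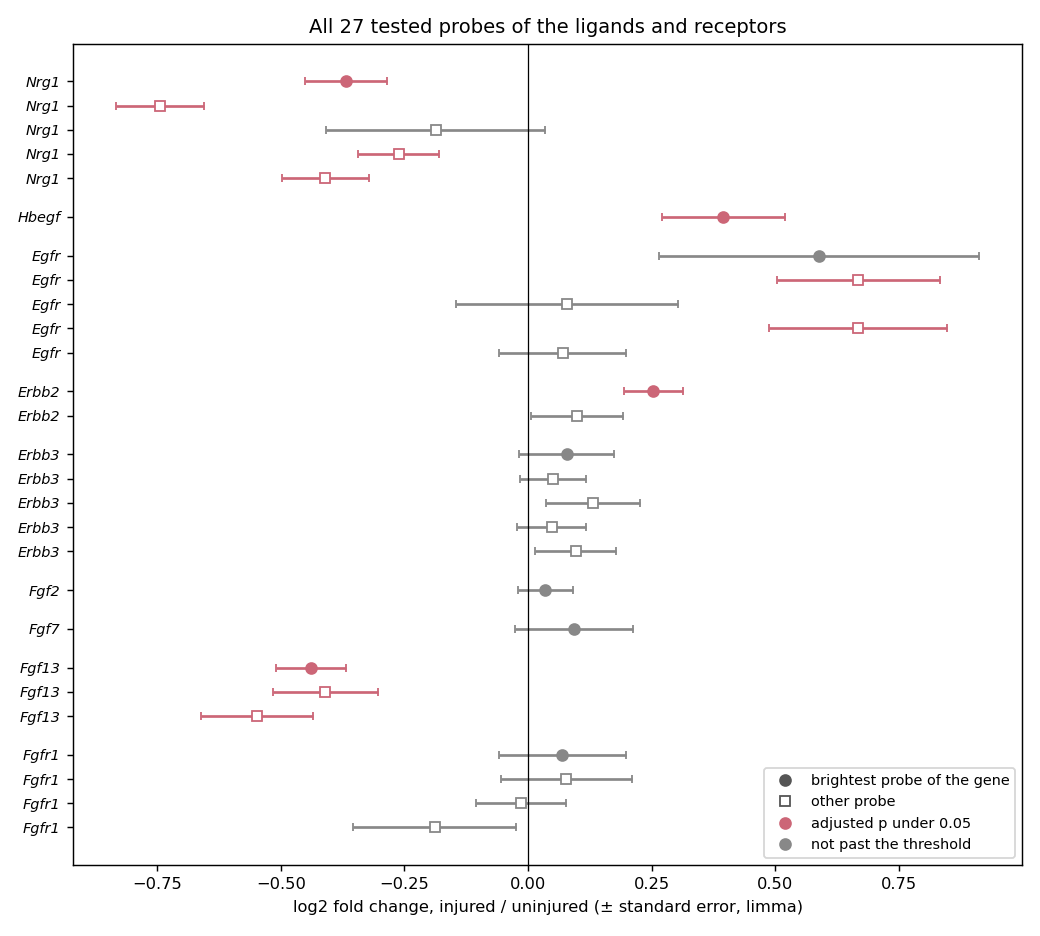
Log2 fold change, injured over uninjured (x axis), with the standard error from limma, for each of the 27 tested probes (rows, grouped by gene); filled circles are the brightest probe of a gene, open squares the others, and red marks an adjusted p under 0.05. All 3 Fgf13 probes and 4 of 5 Nrg1 probes lie left of zero and past the threshold, 2 of 5 Egfr probes lie right of it, and no Erbb3 or Fgfr1 probe passes.

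Fgf13 fell at all 3 of its probes. The gene encodes an intracellular factor that binds sodium channels and microtubules in sensory neurons. The brightest probe (A_52_P154877, chrX:54543296-54543355) was at 5.77, 6.05, 5.88 and 6.02 in uninjured 1 to 4 and at 5.49, 5.48, 5.45, 5.60 and 5.44 in injured 1 to 5. No injured array reached any uninjured array, and the injured arrays were closer together (SD 0.0646) than the uninjured ones (SD 0.126). The difference was -0.44 (SE 0.0705), or 26.3% lower, with an adjusted p of 0.00127 (limma) and an exact two-sided permutation p of 0.00794, the smallest that 4 against 5 arrays allow. The second probe (A_51_P409220, chrX:54548120-54548179) was at 4.43 to 4.67 in uninjured and 3.82 to 4.36 in injured arrays, a difference of -0.41 (SE 0.107, adjusted p 0.0180), a call lost without uninjured 1 (-0.37, adjusted p 0.0606), with an offset of 0 in place of 50 in the background correction (-0.30, adjusted p 0.0583), with Agilent's ratio (-0.18, adjusted p 0.221), with median centring (-0.47, adjusted p 0.112) and with the slide block (-0.53, adjusted p 0.178). The third (A_52_P267243, chrX:54612595-54612654), 69.299 kb upstream of the first, was at 2.44 to 2.70 and at 1.79 to 2.33, with a difference of -0.55 (SE 0.114, adjusted p 0.00570; 0.234 with the slide block), which was -0.93 with an offset of 0 and -0.89 with Agilent's ratio. Neither pair of probes differed in its response after adjustment. On slide 2 the brightest probe was at 5.77 in uninjured 1 and at 5.44 to 5.49 in the injured arrays, and the slide block gave -0.31 (adjusted p 0.181). The call was also lost with the ratio computed by the scanner software (-0.31, adjusted p 0.100).

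Among 10 sensory neuron markers, Isl1, a sensory neuron transcription factor, was the only one called (-0.49, adjusted p 0.000262), and the median difference was -0.02. Relative to the uninjured mean, the list lay between -0.13 and 0.12 in uninjured and between -0.29 and 0.21 in injured arrays. Injured 5 was the highest for the neuron markers and the lowest for Fgf13.

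Of the 3 other FGF homologous factors, 33.3% were called, against 24.9% of all genes. Fgf12 fell by 0.33 on the log2 scale (SE 0.0745, adjusted p 0.00858). The call was lost with the slide block (adjusted p 0.103), with an offset of 0 (-0.17, adjusted p 0.399) and with Agilent's ratio (-0.10, adjusted p 0.622). Fgf12 was named after its values were seen. Its level was 7.44 to 7.64 in uninjured and 7.04 to 7.31 in injured arrays, without overlap. Fgf11 (0.35, adjusted p 0.0826) and Fgf14 (0.02, adjusted p 0.885) did not pass.

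The secreted members Fgf2 and Fgf7 and the receptor Fgfr1 gave no called probe. Fgf2, basic FGF, was at -0.04, -0.01, 0.01 and -0.04 in uninjured 1 to 4 and at -0.03, 0.00, 0.12, 0.02 and -0.05 in injured 1 to 5 (A_51_P399845, spanning chr3:37159793-37207012). The difference was 0.03 (SE 0.0556, adjusted p 0.715). This probe was dim, with Cy5 signals of 77.0 to 122.6. The offset in the background correction draws the ratios of such dim spots toward the reference. The narrow range of levels therefore says little about how steady Fgf2 was. The difference was 0.08 (adjusted p 0.594) with an offset of 0 and 0.07 (adjusted p 0.764) with Agilent's ratio. The second Fgf2 probe (A_52_P376768, chr3:37215398-37215457) was above background on 1 uninjured and 1 injured array only. Fgf7, keratinocyte growth factor (A_51_P465331, chr2:125830264-125830323), was at -2.97, -3.60, -3.16 and -3.03 in uninjured 1 to 4 and at -3.23, -3.00, -3.09, -3.00 and -3.15 in injured 1 to 5. The injured arrays lay within the uninjured range (difference 0.09, SE 0.119, adjusted p 0.629).

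For Fgfr1, the brightest of 4 probes (A_52_P668810, chr8:24330065-24330124) was at -0.11, 0.22, -0.10 and -0.16 in uninjured 1 to 4 and at 0.05, 0.00, -0.31, 0.02 and 0.39 in injured 1 to 5. The highest and the lowest array were both injured, and the difference was 0.07 (SE 0.128, adjusted p 0.751). The other probes differed by 0.08 (A_51_P109469, which shares 39 bases with the brightest), -0.01 (A_52_P136162) and -0.19 (A_52_P552062, adjusted p 0.456). The last lies 41.6 kb upstream of the brightest and was at 0.66 to 1.52 in uninjured and 0.66 to 1.20 in injured arrays.

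Other genes of the same pathways were taken from lists of ligands, receptors, proteases, adaptors, kinases, inhibitors and transcription factors (81 genes, of which 75 were tested). Of these, 25 were called, 10 higher and 15 lower, which is 33.3% against 24.9% of all genes. Their median difference was 0.02, and 6 were called with the slide block (Areg, Fgf3, Fgf5, Fgf9, Etv1 and Grb2). The calls of the other pathway genes named below were lost there. Not tested were Nrg2, Fgf4, Fgf6, Fgf10, Fgf16 and Spry4. The lists were chosen with earlier results of these data known, so the shares called in them are not a test of these pathways.

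Among 7 other EGF-family and neuregulin ligands tested, Areg and Epgn rose and Nrg4 and Egf fell (median of the list 0.12). The share called was 57.1%, against 24.9% of all genes. Areg, amphiregulin, an EGFR ligand (A_52_P482897, chr5:91129331-91129390), was at -1.58, -1.77, -1.47 and -1.51 in uninjured 1 to 4 and at 1.11, 1.49, 1.41, 1.51 and 1.27 in injured 1 to 5. It was below the reference on every uninjured array and above it on every injured array. The difference was 2.94 (SE 0.0960), with an adjusted p of 1.59e-08 (limma), and 0.000105 with the slide block. DRG signal was well above background on 3 of the 4 uninjured arrays, and the size of the difference depended on the treatment of background, at 4.11 with an offset of 0 and 4.79 with Agilent's ratio. Epgn, epigen, another EGFR ligand, was at 0.07 to 0.20 in uninjured and 0.39 to 0.70 in injured arrays (difference 0.42, SE 0.0690, adjusted p 0.00152; 0.158 with the slide block), and its difference was 0.83 with an offset of 0 and 1.24 with Agilent's ratio. Egf fell by 0.26 (SE 0.0646, adjusted p 0.0150), a call lost without uninjured 1 (-0.22, adjusted p 0.0542), with all spots in the background fit (-0.19), with median centring (-0.28) and with the slide block (-0.37, adjusted p 0.120). Its difference was -0.43 with an offset of 0 and -0.53 with Agilent's ratio. Nrg4 fell by 0.25 (SE 0.0650, adjusted p 0.0185), a call lost without uninjured 4 (-0.24, adjusted p 0.0518), with the slide block (adjusted p 0.410), and with all spots, an offset of 0, Agilent's ratio and median centring (-0.35 to -0.27). Nrg3 (-0.27), Tgfa (0.12) and Ereg (0.22) did not pass.

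Of 12 other FGF ligands tested, 2 rose and 3 fell, with a median of -0.08 (41.7% called, against 24.9% of all genes). Fgf3 (A_51_P205028, chr7:141266006-141267865) was not well above background on any uninjured array and was above it on all 5 injured arrays. In the Cy5 channel after loess against the reference and normalization between arrays, its mean signal was 6.17-fold higher after injury. That fold uses the probe's own signal on the uninjured arrays, which was not above background. With Cy5 alone, quantile normalized, the difference was 2.89. The fold does not apply to the ratio to the reference, whose channel was above background on 3 arrays. The fitted difference of that ratio was 2.17 (3.66 with an offset of 0, 4.80 with Agilent's ratio). The adjusted p of that difference was 1.46e-06, and 0.000606 with the slide block. Fgf15 was at -0.13 to 0.19 in uninjured, with 2 of 4 arrays above background, and 0.38 to 0.57 in injured arrays (difference 0.45, adjusted p 0.00195; 0.203 with the slide block). The difference was 1.11 with an offset of 0 and 1.76 with Agilent's ratio.

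The fitted falls of Fgf5 and Fgf9 were larger than that of any member probe. Fgf5 was at 2.99, 2.70, 3.14 and 2.88 in uninjured 1 to 4 and at 1.63, 1.28, 1.60, 1.35 and 1.43 in injured 1 to 5 (A_52_P569375, chr5:97491844-97491903). The groups were far apart, with a difference of -1.47 (SE 0.103, adjusted p 5.06e-06; 0.00437 with the slide block). The reference channel of this probe was not above background on any array. Fgf9, a secreted FGF made by neurons, was at 3.90, 3.67, 3.87 and 4.04 in uninjured 1 to 4 and at 2.87, 3.02, 2.78, 2.94 and 2.92 in injured 1 to 5. Again no array overlapped, and the difference was -0.96 (SE 0.0808, adjusted p 1.79e-05; 0.0113 with the slide block). Fgf18 was at 3.03 to 3.15 and at 2.42 to 2.70 (difference -0.51, SE 0.0707, adjusted p 0.000505; 0.103 with the slide block).

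**Figure D4:**
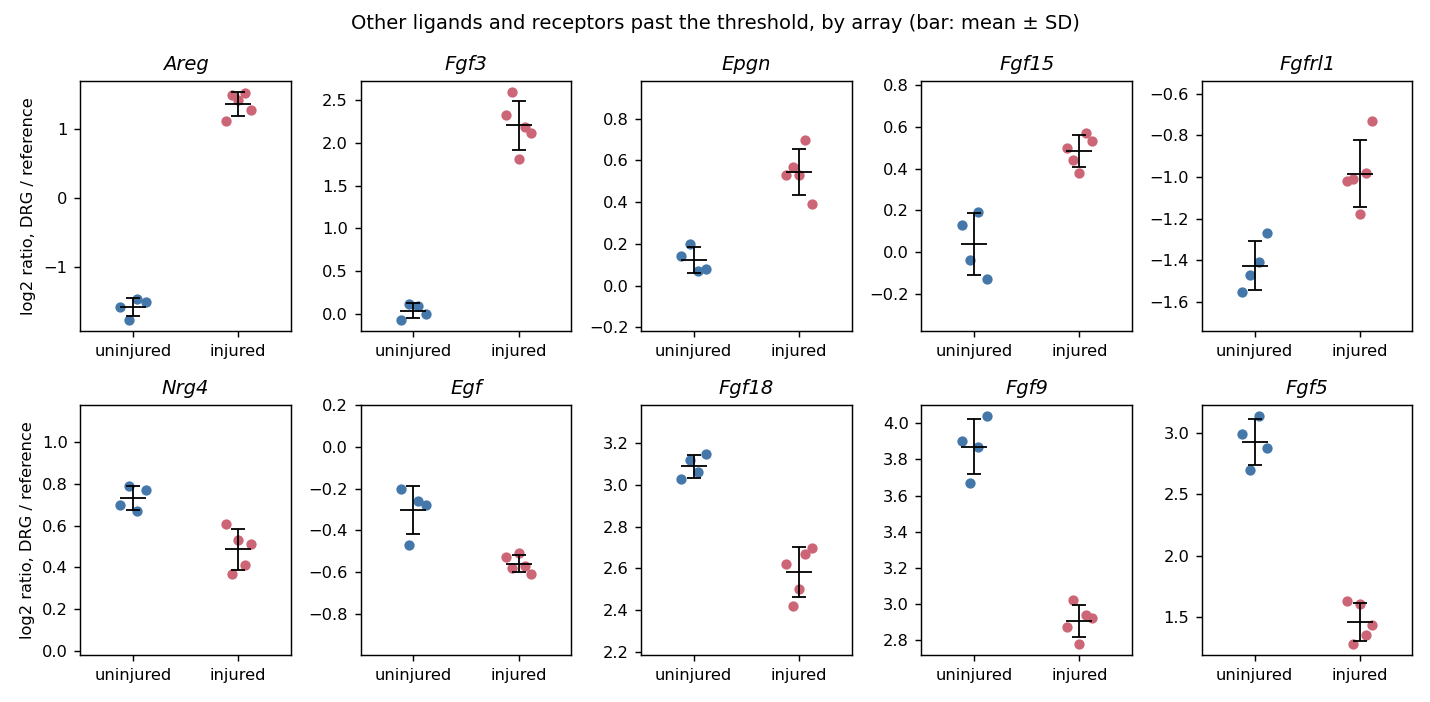
Log2 ratio of DRG over reference (y axis, own scale in each panel) for the 10 other EGF-family and FGF ligands and receptors past the threshold, in 4 uninjured (blue) and 5 injured (red) arrays; bars give the mean ± SD. The groups do not overlap in any panel, and Areg and Fgf3 show the widest gaps.

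Of 6 other FGF receptors and co-receptors, 1 rose (16.7% called, against 24.9% of all genes). This was Fgfrl1, a receptor-like protein without a kinase domain (0.44, SE 0.0923, adjusted p 0.00604; 0.0557 with the slide block), at -1.55 to -1.27 in uninjured and -1.18 to -0.73 in injured arrays. Fgfr2 (-0.09), Fgfr3 (-0.14) and Fgfr4 (-0.11) did not pass. Of 5 proteases and regulators that release ligands, Bace1, the protease that cleaves neuregulin-1 precursors, fell by 0.27 (SE 0.0717, adjusted p 0.0204), a call lost without uninjured 1 (-0.27, adjusted p 0.0522) or without uninjured 2 (-0.24, adjusted p 0.0549), with median centring (-0.38, adjusted p 0.0541) and with the slide block (-0.27, adjusted p 0.318). Adam10 (0.10) and Adam17 (0.29, adjusted p 0.0631) did not pass. The share called among these 5 genes was 20%, against 24.9% of all genes.

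Of 23 adaptors and kinases, 3 rose and 3 fell (median 0.05). The share called was 26.1%, close to the 24.9% of all genes. Grb2, which links receptors to Ras, rose by 0.43 (SE 0.0829, adjusted p 0.00388; 0.0161 with the slide block), while its partners Shc1 (-0.40, adjusted p 0.00315), Sos1 (-0.36, adjusted p 0.0116) and Frs3 (-0.31, adjusted p 0.0124) were lower. With the slide block the adjusted p was 0.125 for Shc1, 0.473 for Sos1 and 0.224 for Frs3. With median centring none of the 4 calls was kept (adjusted p 0.0664 to 0.224). The Sos1 call was also lost with all spots in the background fit (adjusted p 0.0534) and the Frs3 call with Cy5 alone (adjusted p 0.0597). Akt1 was 0.23 higher (adjusted p 0.0155; 0.0502 without uninjured 1), and its call was also lost with an offset of 0 (0.20), median centring (0.11) and Cy5 alone (0.11). The Ras gene Nras was 0.60 higher (SE 0.188, adjusted p 0.0420), with overlapping groups, and its call was lost when uninjured 1, 2 or 4 or injured 2, 3 or 4 was left out (0.49 to 0.62).

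Of 12 feedback inhibitors, 1 rose and 4 fell (median -0.10). The share called was 41.7%, against 24.9% of all genes. Lrig1, which promotes the degradation of ErbB receptors, rose by 0.69 (SE 0.156, adjusted p 0.00930; 0.414 with the slide block), and was at -1.98 to -1.15 in uninjured and -0.94 to -0.57 in injured arrays. Spry3 (-0.46, adjusted p 0.00884), a Sprouty protein, and Spred2 (-0.46, adjusted p 0.00163), both inhibitors of the Ras and ERK cascade, fell, at adjusted p values of 0.104 and 0.0949 with the slide block. Spred1 (-0.20, adjusted p 0.0380) and Il17rd (-0.33, adjusted p 0.0461) were also called lower, but leaving out 7 of the 9 arrays in turn for Spred1 and 8 for Il17rd lost the call. Over its 3 tested probes, the Il17rd differences ran from -0.33 to -0.0023. The ERK-responsive inhibitor Dusp6 (0.17, adjusted p 0.325) did not pass.

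Of 6 ERK-responsive transcription factors, 1 rose and 1 fell (33.3% called, against 24.9% of all genes). Etv1 was at 1.70 to 1.91 in uninjured and 0.89 to 1.24 in injured arrays (difference -0.80, SE 0.0928, adjusted p 0.000160; 0.0251 with the slide block). Egr3 was 0.44 higher (adjusted p 0.0163; 0.0505 without uninjured 3; 0.626 with the slide block). Of the 2 tested Egr3 probes, the other differed by -0.03. Bace1, Grb2, Shc1, Sos1, Frs3, Akt1, Spred1, Spred2, Il17rd and Egr3 were named after their values were seen.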

How the data were processed

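DRG RNA from 4 uninjured and 5 injured samples was hybridised to 9 Agilent 2-colour arrays. The deposited scanner intensities hold, for each channel, the mean signal of a spot and the median of its surroundings (Agilent Feature Extraction 10.5.1.1, per the file headers). The deposited log10 ratios in the same files were dye-normalized by that software. The authors also deposited processed log2 ratios (DRG over reference). The ratios computed here from the scanner intensities, regressed on them, gave a slope of 1.00 to 1.01. Per the labels, the submitters' processing notes name limma.

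Here limma 3.58.1 in R 4.3.3 was used for normexp background correction with an offset of 50, without spots of non-uniform feature or background, loess within each array, and averages of repeated spots. Tested were the 31186 of 41174 probes whose Cy5 signal was well above background on 4 or more arrays, by limma's moderated test with Benjamini-Hochberg adjustment at 0.05. The brightest probe stood for a gene. For single probes an exact permutation test, two-sided, was run over all splits of the arrays. Gene symbols came from the probe's accession (22951 probes), from its deposited name (6659) or from an older synonym (3109), and 8455 probes kept the deposited name. Members and lists were chosen with earlier results of these data known. Genes named outside the members are, from the lists, the called genes with the 5 strongest rises and 5 strongest falls, and called ligands and receptors, with exceptions stated. The number of arrays limits the precision. The procedure was tested on simulated data with independent noise and no slide effect, which cannot address the overlap of injury and slide. Alternatives were other background corrections and normalizations, Agilent's own ratio, the authors' values, Cy5 alone, other filters, slide as a block, array weights, other summaries of a gene's probes, a fold threshold and leaving out each array.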

Additional observations from a re-analysis of the deposited data

Results flagged for a closer look

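Of 104 groups of arrays (those of 1 condition at 1 probe), 5 held an array that stood apart from the rest by Dixon's criterion, and chance alone gives about 1 in 20. Injured 5 stood apart for Nrg1 probe A_52_P369769, at 1.09 against 0.73 to 0.83 in the other injured arrays. The same array was at -0.36 for Egfr probe A_51_P392242, against -1.08 to -0.88, and at -0.34 for Egfr probe A_52_P56471, against -1.02 to -0.93. Without injured 5 the difference at the first of these Egfr probes was 0.54 and the Nrg1 difference was -0.43. Uninjured 2 stood apart for Fgfr1 probe A_51_P109469, at 0.25 against -0.10 to -0.04 in the other uninjured arrays, and for Etv1, at 1.70 against 1.88 to 1.91.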

How the results depend on the processing

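Called were 7337 probes, 4 of the 9 members and 25 pathway genes. Agilent's own ratio and Cy5 alone each left 2 members. Median centring, which moved the median of all genes to -0.05, left 3523 probes, 2 members and 14 pathway genes. Slide as a fixed block left 1508, 0 and 6, and a threshold of 1.5-fold left 1627, 0 and 7. Leaving out each array in turn gave 5377 (without uninjured 1) to 7481 (without injured 5) probes, 3 to 4 members and 19 to 26 pathway genes. Hbegf was the member lost there. It was also lost with all spots in the background fit, an offset of 0, the authors' values, Agilent's ratio, median centring and Cy5 alone. Erbb2 was lost with median centring, Cy5 alone, slide as a fixed block and the mean of its probes. No called member probe changed direction. Differences that did, none of them called, were Erbb3 A_51_P342050 (-0.067) and A_51_P488243 (-0.053) with all spots, Erbb3 A_52_P133607 (-0.018 with no background correction, -0.23 with Agilent's ratio), and, with median centring, Erbb3 A_52_P432949 (-0.0046), Fgfr1 A_52_P668810 (-0.014) and Fgfr1 A_51_P109469 (-0.0044). With slide as a fixed block these were Nrg1 A_52_P328064 (0.28), Erbb3 A_52_P432949 (-0.18), Fgf7 (-0.16) and Fgfr1 A_52_P136162 (0.085). With slide as a random block (within-slide correlation -0.20) they were Egfr A_52_P175190 (-0.0039) and A_52_P674338 (-0.0093), and with array weights Egfr A_52_P175190 (-0.076). Leaving out single arrays gave ranges across zero for Egfr A_52_P175190 (-0.073, without uninjured 2, to 0.22; -0.042 without uninjured 1 and -0.066 without injured 5), Egfr A_52_P674338 (-0.030, without uninjured 1, to 0.15), Fgf7 (-0.044, without uninjured 2, to 0.17), Fgfr1 A_52_P136162 (-0.060 to 0.050; 0.032 without uninjured 2 and 0.050 without injured 3), Fgfr1 A_52_P668810 (-0.020, without injured 5, to 0.15) and Fgfr1 A_51_P109469 (-0.023, without injured 5, to 0.16). The cause was not tested. Of the alternatives for member probes, 507 kept direction and side of the threshold, 41 lost a call, 1 gained one (Erbb3 A_51_P342050, 0.45 with Agilent's ratio) and 23 changed direction. No paired analysis was possible because neither replicate numbers nor animals tie injured to uninjured samples in the labels. Probes near background, such as those of Btc, have only a bound.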

Other observations

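For Hbegf and Fgf13, the members with the largest called rise and fall when each gene is represented by its brightest probe, the genes whose levels followed them most closely over the 9 arrays were listed, as a description with no test, among tested probes with a symbol. Group differences and slides are shared by all points. For Hbegf these were Git1 (Pearson r 0.976), Nde1 (0.962) and Zfp511 (0.960). For Fgf13 they were Decr2 (0.972), Slc4a1ap (0.972) and 1700049E17Rik1 (0.965).

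Of 8 macrophage markers tested, Aif1 (0.90), Cd14 (0.83) and Itgam (0.50) were called higher, against 11.2% of all genes. With slide as a fixed block none of the 3 was called (adjusted p 0.120, 0.101 and 0.334). Relative to the uninjured mean, the list lay between -0.34 and 0.29 in uninjured and between 0.11 and 0.98 in injured arrays. Of 6 satellite glia markers, Glul, glutamine synthetase, was called higher (0.78; adjusted p 0.0424 with that block), and of 5 endothelial markers, Tek (0.47; adjusted p 0.253 with that block). Markers of red blood cells and of dividing cells gave no call.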
